A study of Homo sapiens with 2 samples.

Results

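The genes described here are 7 transcription factor and cofactor genes that act in blood stem and progenitor cells: LYL1, TAL1, LMO2, GATA2, MYB, HHEX and IKZF1. For each one, all peaks were taken that overlapped the gene body or the 20 kb on either side of it on hg19, with gene positions known to the nearest kb. The genes were named by function, though with earlier results of these data known, and 21 of the 20085 listed peaks (0.105%) met this rule. The peaks come from NB4, an established line grown from acute promyelocytic leukemia, a disease of arrested promyelocytes in which the PML gene is fused to the retinoic acid receptor gene RARA. Chromatin of these cells, for which the labels state no treatment, was profiled with an antibody to PML-RARA by CUT&Tag, in which an antibody-guided transposase cuts and tags the DNA beside the bound protein. There were 2 replicates of this 1 group, and the authors deposited 1 peak list merged from both. It holds no value per replicate, no control antibody was analysed here and the sequencing depth is unknown, so no spread between replicates and no test across samples can be given for any value below. All values are descriptions of this 1 list, and peaks of 1 list are not replicates.

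LYL1 and TAL1 are closely related basic helix-loop-helix proteins that pair with E proteins such as TCF3 to bind E-box motifs. LMO2 binds no DNA itself and bridges them, together with LDB1, to GATA factors such as GATA2, and these proteins act as 1 complex in blood stem cells and red cell precursors. MYB is a DNA-binding activator needed for progenitor growth, HHEX is a homeobox repressor of early blood and endothelial cells, and IKZF1 encodes the zinc finger factor Ikaros of lymphoid and myeloid progenitors. PML-RARA keeps the DNA-binding domain of RARA, which reads short half-sites of retinoic acid response elements.

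Start-site sequences are shown for LYL1 and HHEX, which had the highest total signal at a start site among the genes with a RefSeq entry, and for TAL1, which had no peak. Each runs from 250 bases before the start to 50 after it, 5′ to 3′ on the gene's own strand, and comes from RefSeq on GRCh38.p14. The peaks are on hg19, so the sequences were not laid over them. RefSeq entries were matched for 6 of the 7 genes, all but LMO2, and where a gene had several starts the one farthest 5′ was taken. Capitals mark matches to the GATA motif (TGATAA or AGATAA or TGATAG or AGATAG), the retinoid half-site (AGGTCA or GGGTCA or AGTTCA or GGTTCA), the RUNX motif (TGTGGT or TGCGGT), the ETS motif (AGGAAG or CGGAAG) and the E-box (CAGCTG or CAGATG), searched on both strands.

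LYL1: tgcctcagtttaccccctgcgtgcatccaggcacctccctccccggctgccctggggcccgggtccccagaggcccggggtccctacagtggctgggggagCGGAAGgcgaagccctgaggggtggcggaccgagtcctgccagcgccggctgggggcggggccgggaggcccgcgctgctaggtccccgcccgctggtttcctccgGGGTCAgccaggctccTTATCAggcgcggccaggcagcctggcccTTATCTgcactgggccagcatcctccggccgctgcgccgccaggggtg
HHEX: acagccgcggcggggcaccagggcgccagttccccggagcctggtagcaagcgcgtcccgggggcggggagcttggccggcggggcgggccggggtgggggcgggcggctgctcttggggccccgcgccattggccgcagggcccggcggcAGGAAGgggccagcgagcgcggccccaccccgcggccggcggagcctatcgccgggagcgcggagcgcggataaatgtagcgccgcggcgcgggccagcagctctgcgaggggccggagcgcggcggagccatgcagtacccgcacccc
TAL1: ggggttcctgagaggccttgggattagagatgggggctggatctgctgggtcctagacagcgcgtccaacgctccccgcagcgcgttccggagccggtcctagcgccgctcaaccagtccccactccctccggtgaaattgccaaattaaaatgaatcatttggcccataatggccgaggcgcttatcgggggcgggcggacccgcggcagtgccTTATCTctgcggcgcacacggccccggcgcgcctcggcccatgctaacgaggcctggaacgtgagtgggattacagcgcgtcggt

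The stretches lie at chr19:13102809-13103108 on the minus strand, chr10:92689705-92690004 on the plus strand and chr1:47232286-47232585 on the minus strand. LYL1 held 2 GATA matches, with their first bases at positions -27 and 3 from the start, a retinoid half-site GGGTCA at position -43 and an ETS match at -149. TAL1 held a GATA match at position -35 and none of the other 4 motifs. HHEX held an ETS match at -99 and none of the others. Of the 3 genes whose sequence is not printed, GATA2 had a half-site AGGTCA at -240 and an ETS match at 24, IKZF1 had an ETS match at -55 and an E-box at -239, and MYB had none of the 5 motifs. Such letters are common: of 34796 distinct RefSeq promoter stretches of 300 bases, 25.03% held a GATA match, 38.6% a retinoid half-site, 19.6% a RUNX match, 46.9% an ETS match and 29.8% an E-box. A match to letters is no evidence of binding, and these windows do not say what lies elsewhere under the peaks. All 6 stretches were GC-rich, from 64.3% in TAL1 to 80.3% in HHEX, with a median of 58.7% over all stretches.

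At least 1 peak lay in the windows of 6 of the 7 genes, and all 6 had a peak over the start site, and so within 2 kb of it. By the same rules, 65.2% of 325 sampled protein-coding genes had a peak in their window and 45.8% had one within 2 kb of their start. With 7 genes, a count of 6 is a description and no test of a difference from those shares was made. The 7 windows spanned 520 kb, of which peaks covered 6.70%, or 3.15% with LYL1 left out. The 21 peaks summed to a total signal of 518921, which was 0.187% of the signal in the whole list, and to 200538 with LYL1 left out. Total signal here is the authors' column headed width, read from its values as coverage summed over the bases of a peak, and maximum signal is the column headed peak, read as the highest coverage. By summed total signal the genes ran in the order LYL1 (318383), LMO2 (107423), HHEX (38649), IKZF1 (30478), MYB (13481), GATA2 (10507) and TAL1, where no peak is listed. Without values per replicate, neighbours in this order cannot be called different beyond their error.

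**Figure D1:**
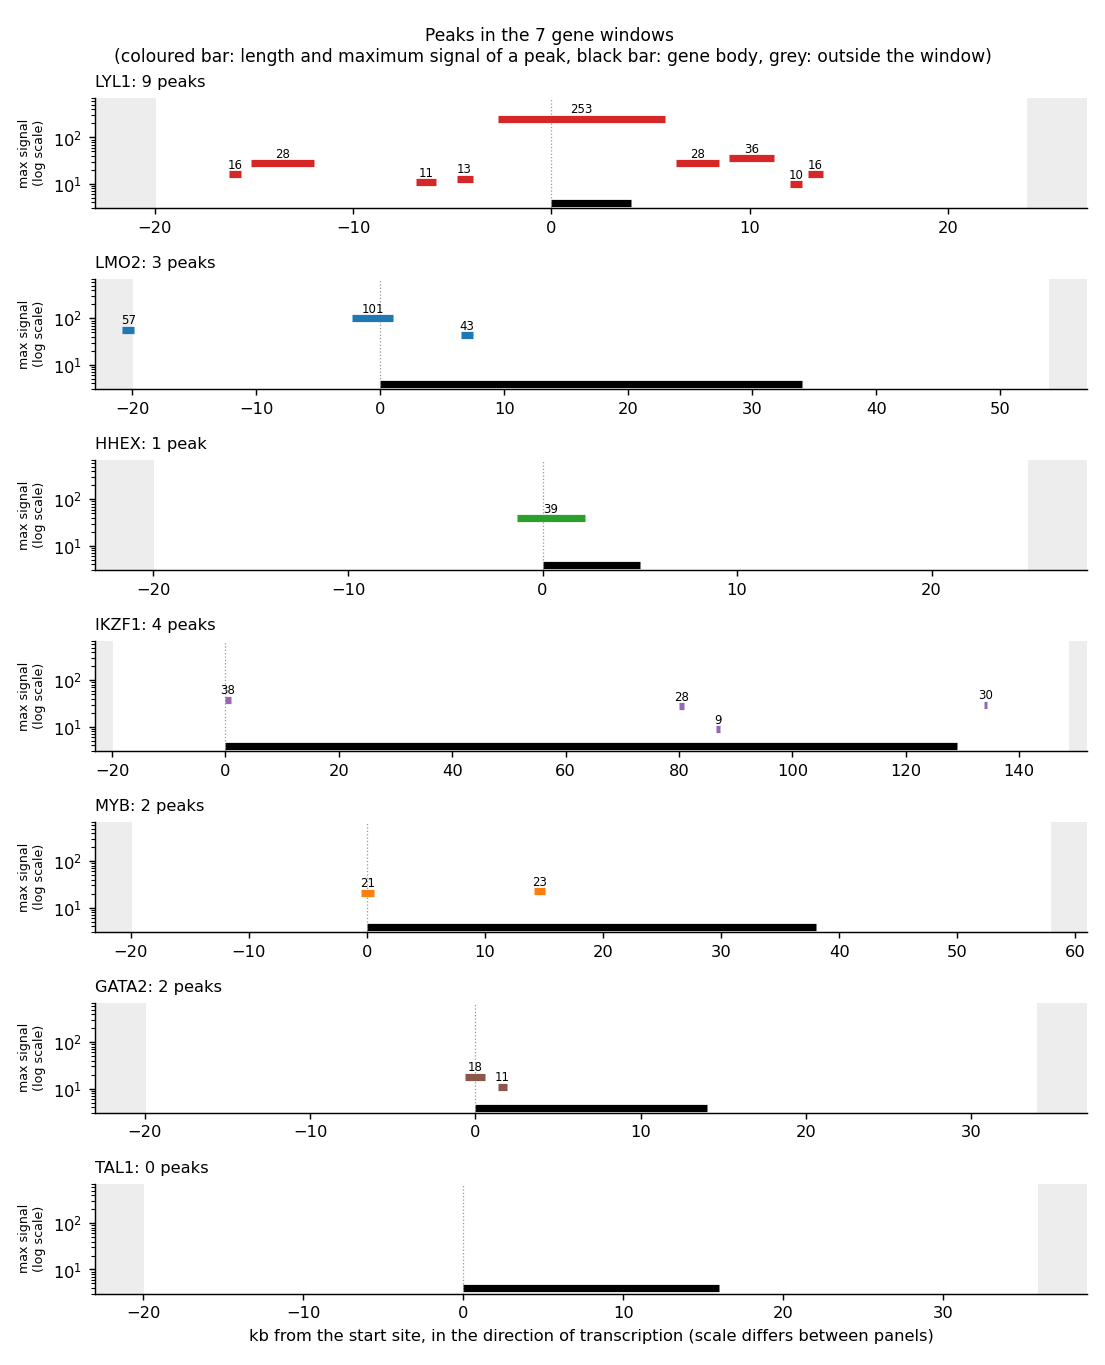
Peaks in the window of each of the 7 genes, in order of summed total signal, with distance from the start site in kb on the x axis and maximum signal on a log y axis. Each coloured bar spans 1 peak at its printed maximum, the black bar is the gene body and grey marks ground outside the window. The start site lies under a peak in 6 genes, LYL1 has 9 peaks and TAL1 has 0.

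LYL1 stood out within the set in peak number, length and height. A single peak at chromosome 19, 13208283 to 13216703, was 8420 bp long with a total signal of 239857 and a maximum of 253, and it ranked 40 of 20085 by total signal and 100 by maximum. It covered the whole 4 kb gene, reached 2.70 kb past the start on the upstream side and ended past the 3′ end of the gene. Its maximum was 8.88 times its mean signal per base of 28.5, the steepest profile of the 21 peaks, which otherwise lay between 2.02 and 5.81 times. It was the 1 member peak of at least 4 kb, a length that 2.13% of the list reached.

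Another 8 peaks shared the LYL1 window, 4 upstream of the start and 4 past the 3′ end. Upstream, on the side where the RefSeq table places TRMT1, a tRNA methyltransferase gene, the strongest was a 3186 bp peak at 13225979 to 13229165 with a total of 24471 and a maximum of 28. Past the 3′ end, on the side of NFIX, a nuclear factor I gene, the strongest were peaks at 13205534 to 13207703 (total 20228, maximum 28) and 13202791 to 13205074 (total 14148, maximum 36). The other 5 had totals from 2984 to 4444. Together the 8 flanking peaks summed to 78526, and the central peak held 75.3% of the signal in the window and 9.80 times the total of the next strongest. The genome positions of the neighbouring genes on hg19 were not used, so none of the 8 is assigned to a gene. Whether the central peak also overlaps a neighbouring gene was likewise not examined. Outside the window, the nearest peaks were 25.8 kb upstream of the gene (total 2936) and 85.6 kb downstream (total 3824).

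The LYL1 peaks belonged to a longer chain. With gaps of at most 10 kb joined, they were 9 of 17 peaks in a run from 13200316 to 13279469, which was 79.2 kb long and summed to 683245. Peaks covered 45.1% of the LYL1 window, against 0% to 7.68% of the windows of the other 6 genes. They lay in 19p13.2 as hg19 draws the band, which had 397 peaks, or 56.7 per Mb, more than 99.5% of 741 bands.

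TAL1, the closest relative of LYL1 in the set, had no peak listed in its window, and none with the flank widened to 50 kb. The nearest one to its start lay 81386 bp upstream, on the side of STIL, a centrosomal protein gene, at chromosome 1, 47779386 to 47780217, with a total of 9593 and a maximum of 37. On the other side the nearest peak was 497 kb past the end of the gene, with a total of 3238. Its band 1p33 held 5 peaks, or 1.28 per Mb, and 27.7% of bands had fewer per Mb. A gene with no peak in its window was common among the sampled genes, at 113 of 325. A missing peak means that no signal passed the authors' threshold, which is not given in the sources used here, and not that the protein was absent.

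LMO2 had the second strongest start-site peak of the set. It lay at chromosome 11, 33912944 to 33916289, with a length of 3345 bp, a total of 76905 and a maximum of 101, and ranked 430 by total signal. Most of it lay upstream, with 2.29 kb before the start and 1.06 kb after it. A second peak, 6.99 kb inside the gene at 33906504 to 33907524, had a total of 12713 and a maximum of 43. The last one, at 33933863 to 33934798, had a total of 17805 and a maximum of 57, and its midpoint was 20.3 kb upstream of the start.

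All 3 LMO2 peaks were dense in signal for their length. Their mean signal per base was 22.99 at the start site, 12.5 inside the gene and 19.04 upstream, against a median of 7.53 over the whole list. All 3 maxima were above the list's median of 22. The upstream peak marks the edge of the rule, since 137 of its 935 bp lay inside the window. The next peak out, at 33951654 to 33952531, was 17.7 kb beyond the window with a total of 6847, and on the other side the nearest was 83.7 kb past the 3′ end with a total of 4275.

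GATA2 carried 2 low peaks, both within 2 kb of the start. The peak over the start at chromosome 3, 128211434 to 128212627, was 1193 bp long with a total of 7707, above the list's median of 6479, and a maximum of 18, and it was centred on the start as far as the kb position can tell. The other, at 128210110 to 128210661, was 1.61 kb inside the gene with a total of 2800 and a maximum of 11, and it ranked 18865 of 20085. Both maxima were below the list's median of 22, so GATA2 was the 1 gene of the 6 with peaks that kept none at that threshold. Nothing else was listed within 20 kb, and the nearest peak upstream, 30.0 kb from the gene at 128241986 to 128243634, had a higher total of 11895 and a maximum of 25. The nearest one downstream, 57.3 kb from the gene, had a total of 4342 and a maximum of 13. Its band 3q21.3 was nonetheless dense, with 66 peaks, or 19.4 per Mb, of which the GATA2 window held 3.03%.

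MYB showed 2 peaks of similar height. That over the start, at chromosome 6, 135501550 to 135502610, had a total of 5773 and a maximum of 21, and it was the weakest of the 6 start-site peaks by total signal. The other lay 14.6 kb inside the gene, at 135516157 to 135517064, with a total of 7708 and a maximum of 23. MYB was the 1 gene of the 6 with peaks whose strongest peak by total signal did not cover the start. Downstream, toward AHI1, the next listed peak was 104 kb from the gene, with a total of 15377. On the other side, the intergenic stretch between HBS1L and MYB is known for distal enhancers of MYB in blood cells. The positions of these enhancers were not used here. Beyond the start-site peak, which began 0.45 kb before the start, the next peak upstream was 547 kb from the gene, with a total of 5947. A stretch with no listed peak means only that no signal there passed the authors' threshold, which is unknown.

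HHEX had 1 broad peak and nothing else in its window. The peak at chromosome 10, 94448712 to 94452166, was 3454 bp long with a total of 38649 and a maximum of 39, and ranked 1385 by total signal. It reached 1.29 kb upstream of the start and 2.17 kb into the 5 kb gene. It was close in length to the start-site peak of LMO2 (3345 bp) but had a lower mean signal per base, 11.2 against 22.99. The nearest other peaks were 96.7 kb upstream of the gene, with a total of 4757, and 61.1 kb downstream, at 94516148 to 94517414, with a total of 18470.

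IKZF1, the longest gene of the set at 129 kb, had 4 peaks spread along it. That over the start, at chromosome 7, 50343881 to 50344945, had a total of 11891 and a maximum of 38. It had 0.945 kb after the start and 0.119 kb before it. With up to 0.5 kb of rounding in the start, the side holding most of it cannot be told. Inside the gene, 80.5 and 86.8 kb from the start, peaks at 50423998 to 50424953 and 50430448 to 50431154 had totals of 9097 and 3144 and maxima of 28 and 9. The last, at 50477787 to 50478379, lay past the 3′ end with a total of 6346 and a maximum of 30. The start-site peak held 39.0% of the signal in the window, the smallest share among the 6 genes with peaks. Its band 7p12.2 had 13 peaks, and the IKZF1 window held 30.8% of them, the highest share among the 7 genes. That window was also the longest of the 7, at 169 kb, and the band the shortest, at 1.5 Mb. The share was not adjusted for these lengths. Upstream, the next peak at 50312523 to 50313404 was 30.6 kb from the gene, with a total of 2724, and downstream the next was 91.7 kb away, with a total of 3006.

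**Figure D2:**
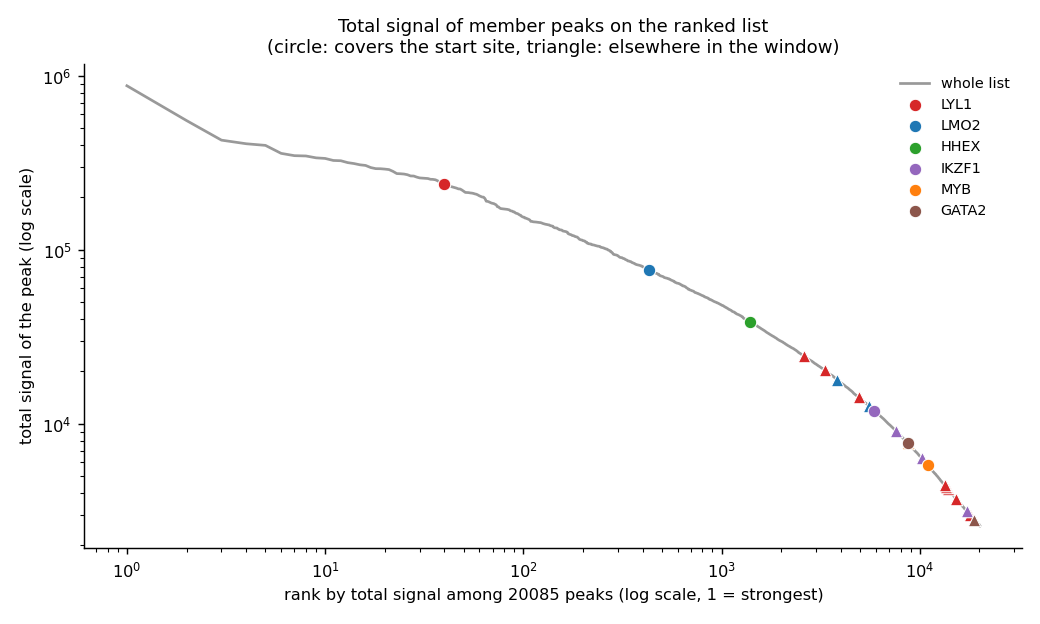
Total signal of every listed peak against its rank, both on log scales, as a grey line, with the member peaks coloured by gene. Circles cover a start site and triangles do not; the circles run from rank 40 for LYL1 to rank 10983 for MYB, and the triangles begin at rank 2598.

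In 4 of the 6 genes with peaks, most of the window's signal lay in peaks that covered the start or came within 2 kb of it. That share was 100% in HHEX and GATA2, 75.3% in LYL1 and 71.6% in LMO2, but 42.8% in MYB and 39.0% in IKZF1. Each peak was counted whole, though those of LYL1, LMO2 and HHEX reached past 2 kb, to 5.72 kb after the start in LYL1. How much of their signal lay within 2 kb cannot be read from the list. The 6 peaks over a start had a median total of 25270, against 6346 for the other 15, and a median length of 2269 bp, against 907 bp. Their totals spanned 41.5-fold, from 239857 at LYL1 to 5773 at MYB. The step from LYL1 to LMO2 was 3.12-fold, from LMO2 to HHEX 1.99-fold and from HHEX to IKZF1 3.25-fold. Peaks within 2 kb of a start, the 6 and the inner GATA2 peak, held 73.9% of the summed signal over all windows, and 71.7% with LYL1 left out, against 27.4% in the windows of the sampled genes. Taken per gene, the median share was 73.5% over the 6 genes, against 33.0% over the 212 sampled genes with a peak. All 6 genes had a peak within 2 kb of their start, against 149 of these 212. The rest of the 212 entered with no share, so both comparisons also reflect how many genes had such a peak. The windows of the 7 genes had a median length of 56 kb, against 72.4 kb for the sampled genes, and neighbouring genes add peaks, so the shares are set side by side without a test. Of the 15 peaks that did not cover a start, 5 lay upstream, 5 in a gene body and 5 past a 3′ end.

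**Figure D3:**
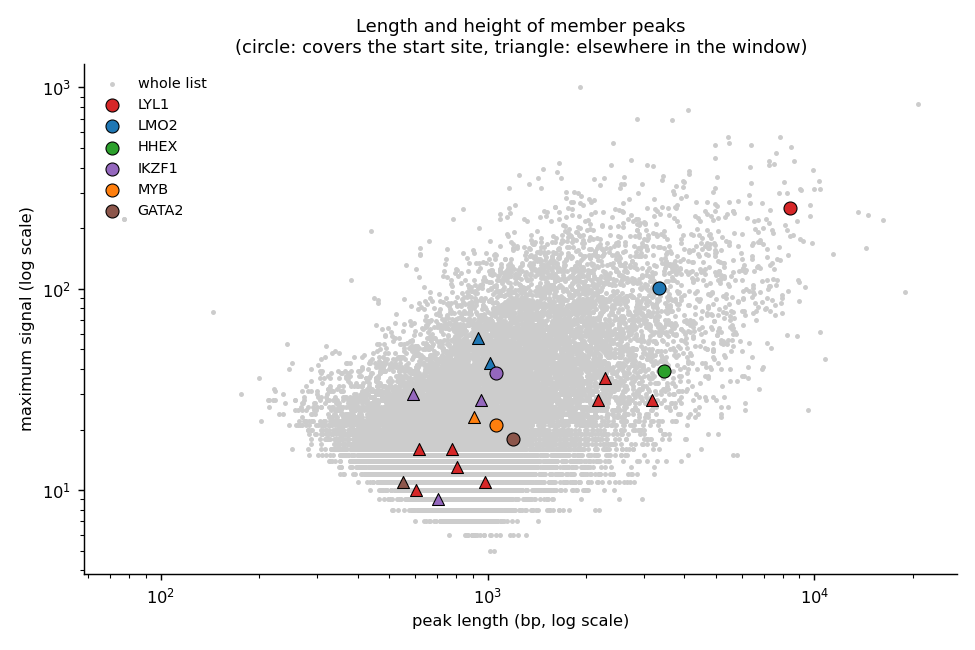
Length in bp against maximum signal, both on log scales, for every listed peak (grey) and for the member peaks coloured by gene, with circles for peaks over a start site and triangles for the others. The LYL1 start-site peak (8420 bp, maximum 253) lies apart from the other member peaks, and the LMO2 and HHEX start-site peaks have similar lengths with maxima of 101 and 39.

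Set beside the whole list, the member peaks were close to its middle apart from a few. Their median total was 7708 (interquartile range 4331 to 17805), against 6479 (3755 to 13912) over all 20085 peaks, and their median maximum was 28, against 22. The median length was 981 bp, against 893 bp. Of the 21, 12 (57.1%) had a maximum at or above the list's median, which 50.7% of the list did. Longer than 2 kb were 6 (28.6%), against 11% of the list. These were the start-site peaks of LYL1, LMO2 and HHEX and the flanking LYL1 peaks of 3186, 2283 and 2169 bp, so most lay in 1 window. Counted by total signal, 3 of the 21 (14.3%) were in the top 10% of the list, against 10% by definition. They were the start-site peaks of LYL1, LMO2 and HHEX. With LYL1 left out, the median total of the other 12 peaks was 8403.

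Signal per kb of window was then set beside the sampled genes. LYL1 had 7236 per kb, above 99.7% of the 325 sampled genes, LMO2 had 1452, above 92.3%, and HHEX had 859, above 89.2%. GATA2 (195), IKZF1 (180) and MYB (173) were near one another, above 65.2%, 64.3% and 64.0%. TAL1 was at 0, as were the sampled genes with no peak. The median was 195 over the 7 genes and 84.0 over the sampled genes. For the 149 sampled genes with a peak within 2 kb of their start, the strongest such peak was taken. In the 6 genes with peaks, the peak over the start was also the strongest within 2 kb. The totals of LYL1, LMO2 and HHEX there exceeded 99.3%, 97.3% and 95.3% of the 149. That of IKZF1 exceeded 68.5%, that of GATA2 43.0% and that of MYB 32.9%. The sampled genes are examples shipped with software and no random draw, and most of their models carry no build label, so they are a yardstick for these genes and no estimate for the genome.

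**Figure D4:**
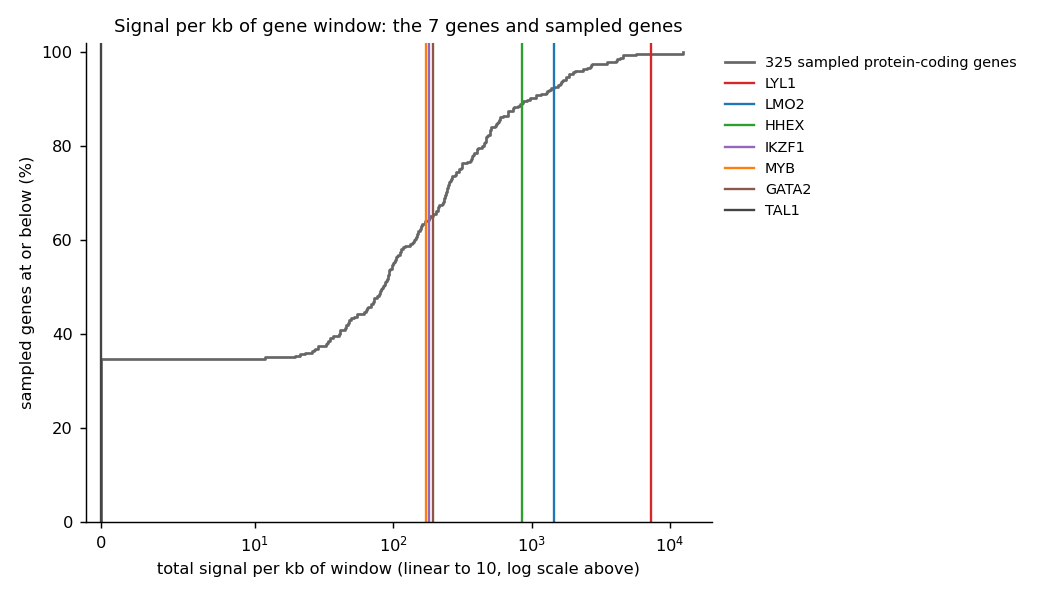
Cumulative share of 325 sampled protein-coding genes (y axis, percent) by total signal per kb of window (x axis, linear up to 10 and log above), with a vertical line for each of the 7 genes. MYB, IKZF1 and GATA2 sit together between 173 and 195 per kb, HHEX, LMO2 and LYL1 lie higher, and TAL1 is at 0.

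Partners and other progenitor genes were placed by cytogenetic band, since no hg19 gene model was used for them, except ETV6. That gene was among the sampled genes and had 6 peaks in a window of 505 kb, with 121 of total signal per kb. Of 21 listed genes, 19 lay in bands of comparable length on both builds, and 15 of the 19 bands had more peaks per Mb than the median of 741 bands, 3.45 per Mb. By definition about 49.9% of bands are above it. That share counts every band once, so it is no expectation for bands picked because they hold a named gene. The bands of the 7 genes themselves were above the median in 5 cases, with HHEX (3.10 per Mb) and TAL1 below. Among partners of the LMO2 complex, the band of TCF3, the E protein (19p13.3), had 39.1 per Mb and that of LDB1 (10q24.32) 27.4. The band of CBFA2T3, a co-repressor that joins the same complex, had 90.6 per Mb (16q24.3), and that of ZFPM1, the GATA cofactor, 38.8 (16q24.2).

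Among other DNA-binding factors of stem and progenitor cells, the bands of GFI1B (30.5 per Mb), SPI1 (19.1), RUNX1 (13.5), MEIS1 (11.1), FLI1 (10.0), HOXA9 (9.60), ERG (6.55) and MYC (5.95) were above the median. So were those of GFI1 (4.81), ETV6 (4.07) and MECOM (3.64), by less. Below it were the bands of MEF2C (1.37), BCL11A (2.70), the stem cell factor receptor gene KIT (2.21) and the stem cell surface marker gene CD34 (2.56). A band spans several Mb and many genes, and the density of genes was not adjusted for, so these values describe neighbourhoods and link no peak to a gene. KLF1 and GATA1 lay in bands whose lengths differ between the builds by more than 10% and were left out.

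**Figure D5:**
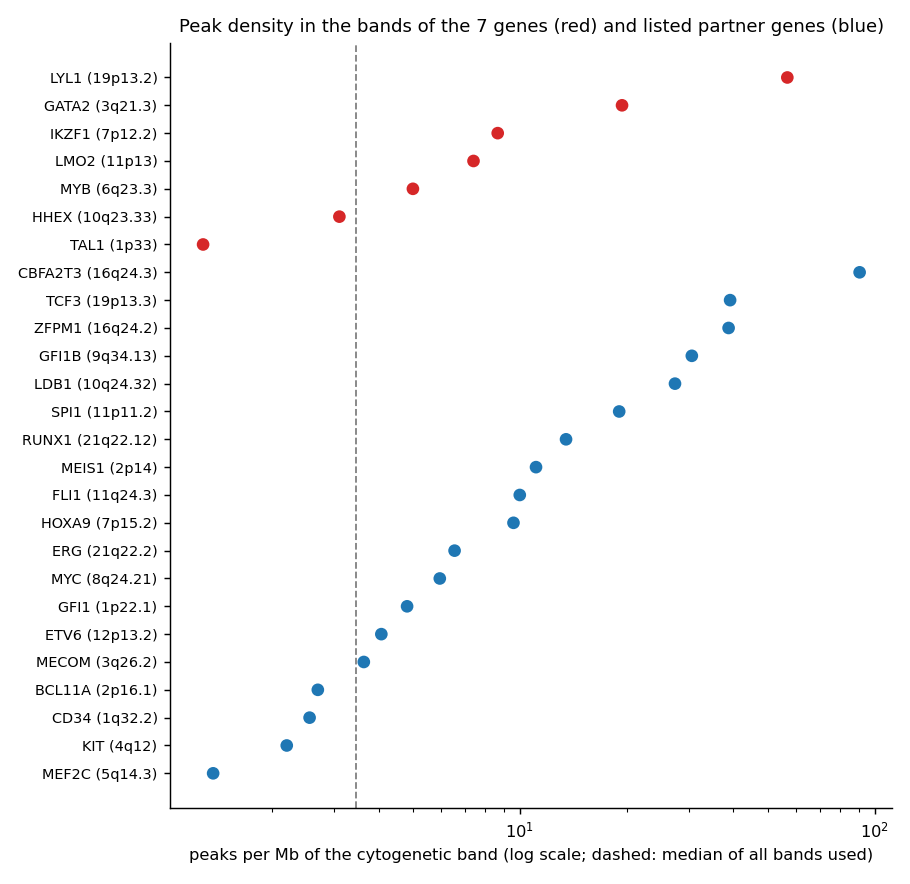
Peaks per Mb (log x axis) in the cytogenetic band of each of the 7 genes (red) and of 19 listed partner and progenitor genes (blue), with the median of all bands used as a dashed line. The 7 genes range from 1.28 per Mb for TAL1 to 56.7 for LYL1, and 15 of the 19 other bands lie right of the line.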

How the data were processed

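Both CUT&Tag replicates enter through 1 merged peak list. Trimmomatic, Bowtie2, SAMtools, bedtools and SEACR, and the build hg19, are named in the submitters' processing notes. No version, peak threshold or way of merging was found in these sources. The deposited list gives 2 signal columns per peak. They are read here as summed coverage (total) and highest coverage (maximum), because total exceeds length in all 20085 rows and never exceeds length times maximum. No scaling to depth is stated, depth is unknown, and starts may count from 0.

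Peaks overlapping a window by at least 1 bp were counted with Python 3.11.15 and pandas 2.3.3. Gene positions are given to the nearest kb, so distances from a start carry up to 0.5 kb of rounding. Sampled genes came from GenomicFeatures 1.54.1 (36 genes, hg19) and pyranges 0.1.4 (289, build not named; of 297 models compared, 7 started within 2 kb of the GRCh38 position), after 2 models longer than 2500 kb were dropped. Bands came from circlize 0.4.16. Partner genes were put in GRCh38 bands and matched by band name. RefSeq tables on GRCh38.p14 gave symbols, neighbours and promoter sequences. Overlap and motif steps were checked on made-up peaks and sequences.

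The 7 genes and the partner list were chosen with earlier results of these data known, and the motifs and the sampled-gene yardstick after the file had been seen. The text names the 7 genes, their neighbours and the listed partners, and describes singly the start-site peaks and the 3 strongest in each window, with 1 further peak of LYL1 and 1 of IKZF1, and the nearest peak outside each window on either side, added after their values were seen. No test was run. Alternatives were other flanks and start-site windows, a height threshold, placement by midpoint, merging within 1 kb and leaving out LYL1.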

Additional observations from a re-analysis of the deposited data

How the results depend on the processing

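A value was taken as unchanged when it stayed within 1.5 times the reported one, since there is no replicate spread to set it against. No paired analysis was possible because both replicates belong to 1 group and the list merges them, and for the same reason no replicate could be left out. Of 34 alternative values for the set as a whole, 27 stayed within that range. The number of peaks was 11 with gene bodies alone, 12 with a maximum signal of at least 22 and 12 without LYL1, a choice made after seeing the data, against 21 reported. The summed total signal was 804251 with a flank of 50 kb and 200538 without LYL1, against 518921. The share of the windows under peaks was 3.15% without LYL1, against 6.70%, and the median total was 15977 with the height threshold, against 7708; that threshold removes low peaks by construction. Genes with a peak numbered 6 under every flank and 5 with the threshold, where GATA2 had none. Start sites with a peak numbered 6 with windows of 1 and 5 kb and 4 with the threshold. Of 42 values for single genes, 36 stayed in range. The moved ones were LYL1 (1 peak in the gene body, 4 with the threshold, 4 after merging), GATA2 (0 with the threshold, 1 after merging) and MYB (1 with the threshold). What the unknown depth and threshold leave undetected cannot be read from the list.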
